A study of Mus musculus with 18 samples.

Results

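The genes described here are 49 DNA replication and S phase genes, taken by name from the roles of their proteins: origin recognition and licensing, the MCM2-7 helicase, its activators, the sliding clamp and its loader, polymerases and primase, single-strand binding and Okazaki fragment joining, nucleotide supply, chromatin supply, fork checkpoint and repair, and 3 E2F factors. The 49 stand among 56893 features of the larger count table. All 49 were listed in both count tables and all 49 passed the filter on low counts in both experiments. No measured value entered the choice of names, but the names were listed with earlier results of these data known.

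Polyadenylated RNA was sequenced from mammary epithelial organoids, small 3-dimensional cultures grown from purified gland epithelium of nulliparous wild type C57BL/6 mice, with 3 mice as the source. The estradiol experiment set 10 nM estradiol, the main ligand of the estrogen receptors, against ethanol for 11 days in 12-day cultures of glands from mice of about 24 weeks. The Torin experiment set 100 nM Torin 1, which inhibits the mTOR kinase in both of its complexes, against DMSO in Matrigel droplets collected on day 18 of culture, from mice of about 15 weeks. All groups grew in EpiCult-B medium with 5% FBS in the first day only. Each of the 6 groups (estradiol, ethanol, Torin D6, DMSO D6, Torin D12, DMSO D12) had 3 libraries, 18 in all. The sample titles read D6 and D12 as 6 and 12 days of treatment, whereas the design text of the series gives the lengths the other way round. The labels give these days under a batch tag, so length of treatment, its start and any batch cannot be told apart, and the arms are called D6 and D12. The labels do not say whether the libraries of a group came from separate animals, so p-values measure the spread between these libraries, which may be technical.

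Eukaryotic replication begins when ORC, CDC6 and CDT1 load the ring-shaped MCM2-7 helicase onto origins in G1, a step called licensing. At the start of S phase CDC45 and the GINS complex switch the helicase on, and polymerases alpha, delta and epsilon copy the strands with the help of the PCNA clamp and the RPA single-strand binder. Many of these genes are transcribed in late G1 under E2F factors, which are released when cyclin D and cyclin E kinases phosphorylate the retinoblastoma proteins. In the mammary gland, estrogen drives epithelial proliferation, and mTOR couples growth signals and nutrients to cell growth and division.

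Estradiol and ethanol libraries held 20637765 to 24312389 counts, and Torin and DMSO libraries 23239364 to 28910688. Levels are given as CPM, counts scaled to a common library size. All 15 epithelial markers were present in every library. Their summed level was 6722 to 8469 CPM in Torin D12 and 10539 to 10896 CPM in DMSO D12 libraries, where 9 fell and 1 rose. The ranges overlapped in the other comparisons, although single markers moved: 4 of 15 rose and 6 fell with estradiol, and 4 rose and 6 fell in Torin D6. The basal keratin gene Krt5 had 67.0, 71.5 and 87.5 CPM in Torin D6 libraries, against 695, 736 and 636 CPM in DMSO D6 libraries (log2 -3.19, edgeR adjusted p 5e-09), and fell by 1.13 in Torin D12. The luminal keratin genes Krt8 (1.05) and Krt18 (0.73) were among the 4 that rose in Torin D6, where 10 of the 15 had negative values. No epithelial marker exceeded 0.45 in D12. Foxa1 of the same list fell in D6 when the third Torin D6 library was left out (-0.33, edgeR adjusted p 0.0363). Cd14, the only abundant gene of the immune list, had at least 630 CPM in every library. The T cell marker Cd3e had at most 5 counts in any library, Ptprc at most 16, and the endothelial marker Cdh5 at most 13. Pecam1, also endothelial, had up to 354 counts and fell in Torin D12 (-0.76). The macrophage marker Cd68 had 1.12 to 1.62 CPM in Torin D6 and 5.33 to 10.7 CPM in DMSO D6 libraries. It fell in all 3 comparisons (-1.16 with estradiol, -2.50 in D6, -2.69 in D12). The immune list did not only fall: of 3 genes tested with estradiol, 1 rose and 1 fell. Of 4 tested with Torin, 1 rose (log2 1.63) and 2 fell in D6, and 1 fell in D12. Pparg of the adipocyte list rose in all 3 comparisons (1.09 with estradiol), and Adipoq had at most 2 counts. Fibroblast markers were present and moved with the groups. Their summed level was 485 to 578 CPM in estradiol and 350 to 394 CPM in ethanol libraries, where 7 of 10 rose and 1 fell. It was 305 to 344 CPM in Torin D6 and 961 to 1332 CPM in DMSO D6 libraries, and 9 of 10 fell. In the D12 arm the sum was 777 to 1105 CPM with Torin and 965 to 1123 CPM with DMSO, where 1 marker rose and 2 fell. The part of these shifts in the replication genes' changes was not tested, and in bulk RNA fewer cells of a type and less RNA per cell cannot be told apart.

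The third Torin D6 library stood apart from the other two for several listed genes, which were picked out after their values were seen. E2f6 had 33.0 CPM there, against 3.29 and 4.85 CPM in the other Torin D6 libraries and 1.99 to 3.11 CPM in DMSO D6 libraries. Donson had 11.0 CPM there, against 2.07 and 2.85 CPM, and Foxa1 had 103.3 CPM, against 25.6 and 28.3 CPM. With that library 8 of the 49 replication genes rose and 7 fell in D6, where 19.8% of all genes rose and 19.3% fell. Without it 7 rose and 8 fell, where 17.5% of all genes rose and 19.6% fell. Epithelial markers then numbered 4 rises and 9 falls and fibroblast markers 10 falls.

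With estradiol 23 of the 49 replication genes rose, 4 fell and 22 did not pass the threshold of edgeR's quasi-likelihood test (Benjamini-Hochberg adjusted p under 0.05 over all genes). Among all 15358 genes tested, 17.4% rose and 16.6% fell, so the share of these genes that rose was above the background and the share that fell was below it. Their median log2 fold change was 0.18, against -0.01 for all genes, and 41 of 49 had a positive value. With gene-wise factors, the scaling, different for each gene, that the deposited normalized values imply, 13 rose, and 13 did so in limma on those values. Over all genes 1913 and 1898 rose in these settings, against 2668 in the main fit. Without the second or the third ethanol library 1 member fell, not 4, and 2 fell when any 1 estradiol library was left out. Over all genes 2051 to 2317 fell in these settings, against 2552 in the main fit. The estradiol and ethanol libraries did not overlap for 29 members that were higher and 4 that were lower, a state that 46.4% of all genes had in either direction. In the Torin D6 arm 8 rose and 7 fell, where 19.8% of all 18112 genes rose and 19.3% fell. In the Torin D12 arm 7 rose and 12 fell, against 10.8% and 14.6% of all genes. Without the second DMSO D6 library, or in a fit of the D6 groups alone, 5 rose in D6. Over all genes 2692 and 2617 rose in these settings, against 3585 in the main fit. The median of the 49 was -0.09 in D6 and -0.13 in D12, against 0.05 and 0.01 over all genes.

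Between DMSO D12 and DMSO D6 libraries none of the 49 passed in edgeR or in DESeq2, and none reached an unadjusted p under 0.05 in edgeR, where 732 of all genes did. The share of all genes that passed was 0 for higher and 0.00552% for lower values. These groups did not overlap for 2 members that were higher (background 6.74%) and 1 that was lower (background 5.41%).

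**Figure D1:**
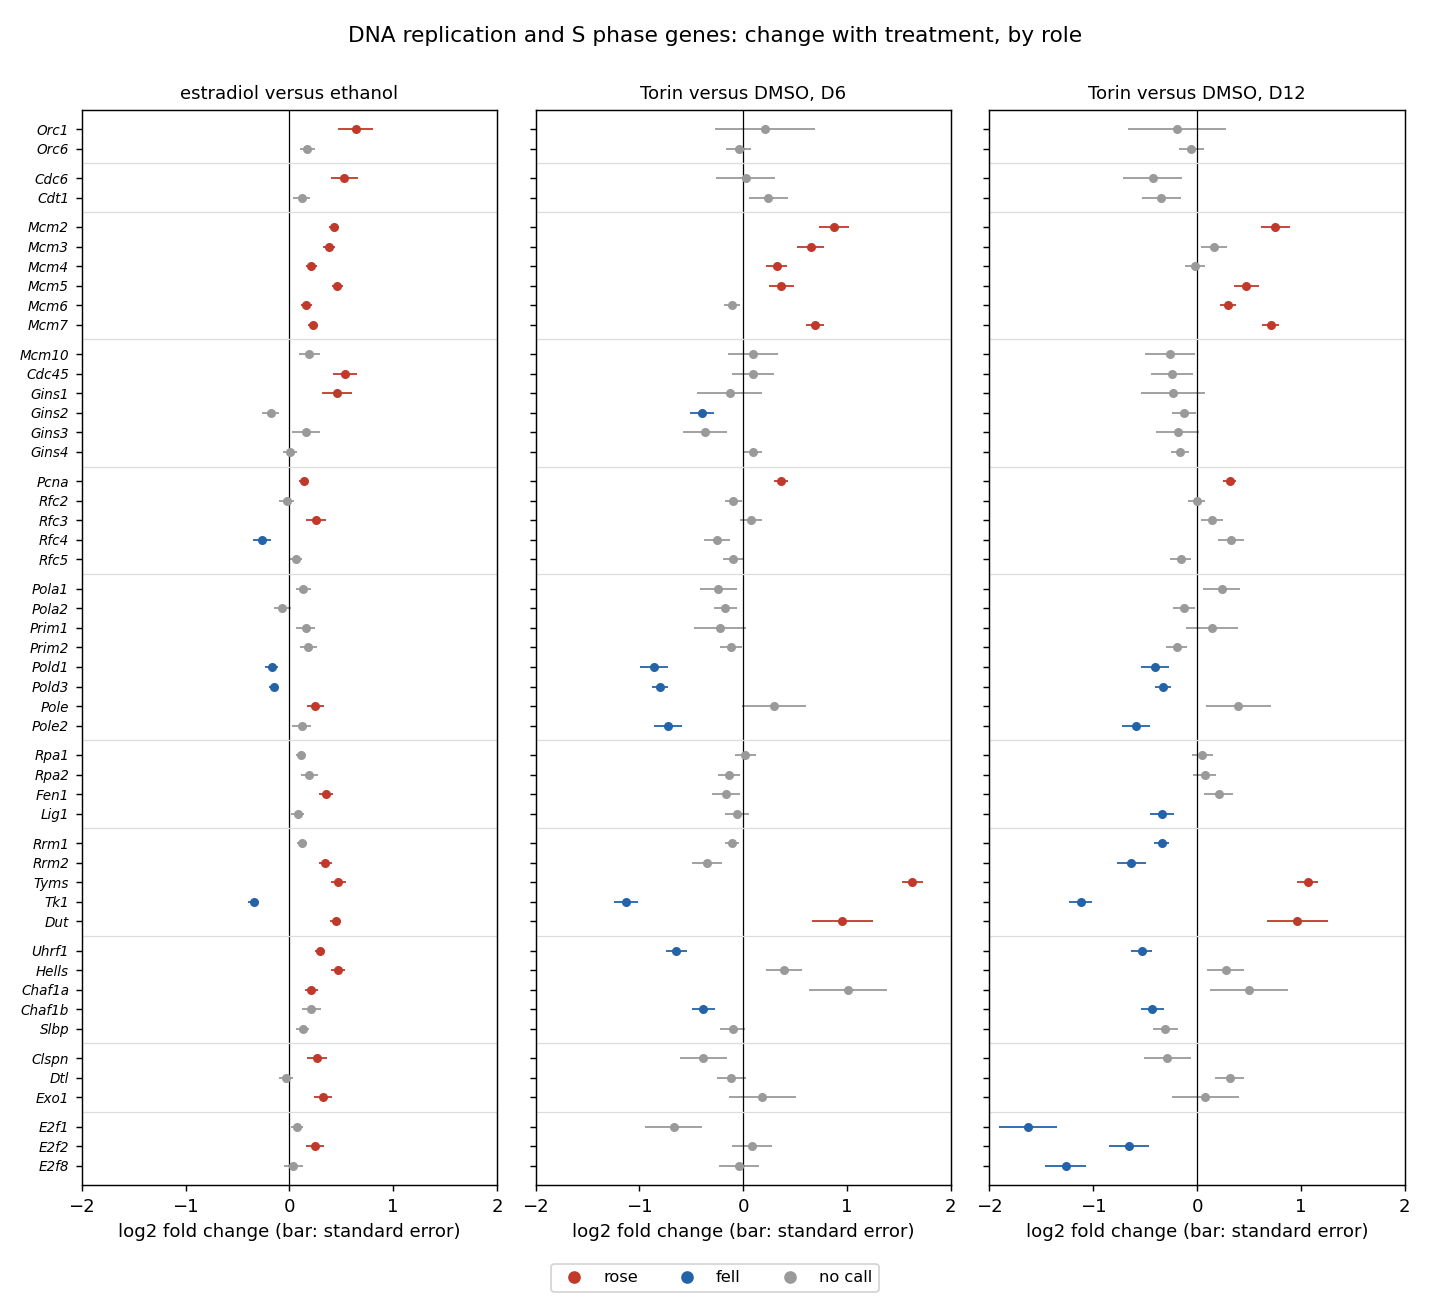
Log2 fold change of each of the 49 replication and S phase genes (points, with the standard error of the fit as bars) for estradiol against ethanol, Torin against DMSO in arm D6 and in arm D12. Genes run down the page by role, and colour shows whether edgeR's quasi-likelihood test called a rise, a fall or neither: 23 rose with estradiol, 8 in D6 and 7 in D12.

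Over the 3 treatment comparisons 34 of the 49 passed in at least 1 and 15 in none; of 13016 genes tested in both experiments, 65.1% passed in at least 1. Mcm2, Mcm5, Mcm7, Pcna, Tyms and Dut rose in all 3, which 4.81% of those genes did. Tk1, Pold1 and Pold3 fell in all 3, which 5.60% did. Both Torin arms shared 6 rises (background 7.04%) and 6 falls (background 10.0%), and no member that fell in either arm rose in the other. Uhrf1, Rrm2 and E2f2 rose with estradiol and fell in at least 1 Torin arm, and none did the reverse.

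Of the 9 genes that moved the same way in all 3 comparisons, 4 carry an E2F consensus form in the RefSeq promoter, a window of 250 bases before to 50 after the transcription start. Their promoters are shown because Mcm5 and Mcm7 rose in every comparison while Pold1 and Pold3 fell, and each holds a form of the same motif. Mcm7 had several promoters listed, of which the first is shown. Capitals mark the E2F forms (TTTCCCGC, TTTCGCGC, TTTGCCGC and TTTGGCGC on either strand), and each line reads 5′ to 3′ on the gene's own strand. All are from RefSeq, build GRCm38.p6: Mcm5 at chr8:75109259-75109558 (plus strand), Mcm7 at chr5:138171834-138172133, Pold1 at chr7:44548766-44549065 and Pold3 at chr7:100121453-100121752 (all 3 minus strand).
Mcm5: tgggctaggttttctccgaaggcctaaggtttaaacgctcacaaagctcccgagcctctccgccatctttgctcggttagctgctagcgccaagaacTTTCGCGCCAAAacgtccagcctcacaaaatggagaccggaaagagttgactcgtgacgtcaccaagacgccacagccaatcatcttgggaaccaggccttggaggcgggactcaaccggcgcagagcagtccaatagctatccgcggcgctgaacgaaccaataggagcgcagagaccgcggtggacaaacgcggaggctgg
Mcm7: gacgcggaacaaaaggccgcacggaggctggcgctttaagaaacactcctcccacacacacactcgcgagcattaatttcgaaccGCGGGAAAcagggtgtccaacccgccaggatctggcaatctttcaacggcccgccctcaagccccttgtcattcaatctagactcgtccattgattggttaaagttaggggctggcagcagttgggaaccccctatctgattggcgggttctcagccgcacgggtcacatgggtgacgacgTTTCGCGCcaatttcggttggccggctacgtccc
Pold1: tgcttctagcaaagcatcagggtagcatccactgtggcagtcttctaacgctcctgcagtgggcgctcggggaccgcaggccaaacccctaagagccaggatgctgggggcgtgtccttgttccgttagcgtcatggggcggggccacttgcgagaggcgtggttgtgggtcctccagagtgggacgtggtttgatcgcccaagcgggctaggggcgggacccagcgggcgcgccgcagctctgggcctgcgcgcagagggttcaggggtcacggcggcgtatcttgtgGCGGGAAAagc
Pold3: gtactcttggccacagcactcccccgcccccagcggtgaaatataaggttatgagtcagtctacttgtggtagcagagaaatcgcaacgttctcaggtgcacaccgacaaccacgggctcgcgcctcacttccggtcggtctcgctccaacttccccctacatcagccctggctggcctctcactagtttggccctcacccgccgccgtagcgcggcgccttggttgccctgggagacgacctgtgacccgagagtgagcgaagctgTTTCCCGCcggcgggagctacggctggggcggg
In Mcm5 a pair of forms, 1 on each strand, overlaps within a single run that begins 153 bases before the start. Mcm7 has 1 form 165 bases before the start and another 16 bases after it. The single forms of Pold1 and Pold3 begin 39 and 17 bases after the start.

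Genes of the MCM2-7 ring, the motor that unwinds DNA at the fork, moved as a group with estradiol and less evenly with Torin. Their log2 fold changes ran from -0.11 (Mcm6) to 0.88 (Mcm2) in D6 and from -0.02 (Mcm4) to 0.75 (Mcm2) in D12. With estradiol all 6 subunits rose, in Torin D6 5 of 6 rose (not Mcm6), and in Torin D12 4 of 6 rose (Mcm2, Mcm5, Mcm6 and Mcm7). Among all genes 17.4% rose with estradiol, 19.8% in Torin D6 and 10.8% in Torin D12. Mcm2 had 62.8, 60.1 and 58.0 CPM in estradiol libraries, against 44.0, 44.4 and 45.5 CPM in ethanol libraries, a log2 fold change of 0.43 (SE 0.05, edgeR adjusted p 6.75e-06). It had 51.2, 61.5 and 40.4 CPM in Torin D6 libraries, against 26.8, 27.9 and 28.8 CPM in DMSO D6 libraries (0.88, SE 0.14, edgeR adjusted p 0.000457). In D12 it had 48.5, 51.8 and 39.2 CPM with Torin and 27.8, 27.6 and 27.2 CPM with DMSO (0.75, SE 0.14, edgeR adjusted p 0.00218). The groups did not overlap in any of the 3 comparisons, and the Torin libraries were more spread than the DMSO libraries.

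Mcm7, which sits next to Mcm3 in the ring, had 98, 96.5 and 101.6 CPM in estradiol and 79.4, 84.5 and 89.1 CPM in ethanol libraries (log2 0.23, SE 0.05, edgeR adjusted p 0.00247). With Torin it had 80.3, 77.9 and 71.7 CPM in D6, against 49.5, 44.1 and 48.7 CPM with DMSO (0.69, SE 0.08, edgeR adjusted p 4.76e-05). The D12 values were 69.1, 70.2 and 81.0 CPM with Torin and 43.9, 46.6 and 44.3 CPM with DMSO (0.71, SE 0.08, edgeR adjusted p 9.55e-05). Every Torin library thus lay above every DMSO library by a wide margin, and the Torin changes of Mcm7 were nearly equal in the arms. The estradiol call was lost with the gene-wise factors (edgeR adjusted p 0.16).

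Mcm5 forms with Mcm2 the gate through which DNA enters the ring. Its levels were 66.1, 66.0 and 68.7 CPM with estradiol and 45.6, 47.2 and 53.2 CPM with ethanol (log2 0.46, SE 0.06, edgeR adjusted p 1.6e-05). In D6 it had 20.7, 22.0 and 18.7 CPM with Torin and 16.1, 13.6 and 17.9 CPM with DMSO (0.37, SE 0.12, edgeR adjusted p 0.0296). The third library of each group nearly met, and the D6 call was lost without the first or second Torin library or the first or second DMSO library (edgeR adjusted p 0.069 to 0.118), without a filter (0.13) and in a fit of the D6 groups alone (0.0952). In D12 the values were 22.4, 22.0 and 21.0 CPM with Torin and 15.6, 14.4 and 17.0 CPM with DMSO (0.47, SE 0.12, edgeR adjusted p 0.0125), and without the second DMSO library the adjusted p was 0.0577.

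Mcm3 had 59.9, 51.9 and 59.7 CPM in estradiol libraries, against 44.1, 43.8 and 44.0 CPM in ethanol libraries (log2 0.38, SE 0.06, edgeR adjusted p 0.000135). Its Torin change was 0.65 in D6 (edgeR adjusted p 0.00175) and 0.16 in D12, where it did not pass. Mcm4 rose with estradiol (0.21) and in Torin D6 (0.32), and its value in D12 was -0.02. The D6 call of Mcm4 was lost without the second or the third DMSO or the first Torin library (edgeR adjusted p 0.0548 to 0.0926). Mcm6 rose by 0.16 with estradiol, a call lost without the first or the third estradiol or the first or the second ethanol library (edgeR adjusted p 0.0541 to 0.104). In D6 it had 82.9, 75.9 and 77.3 CPM with Torin and 89.6, 79.4 and 85.1 CPM with DMSO, groups that overlap (-0.11, not passed). In D12 it had 93.0, 101.6 and 95.4 CPM with Torin and 72.8, 83.2 and 79.3 CPM with DMSO, groups that do not (0.30, SE 0.08, edgeR adjusted p 0.0121); without the first DMSO or the second Torin library the adjusted p was 0.0641 and 0.0525. The Mcm6 effects of the arms differed by 0.41 (D12 minus D6, SE 0.11, edgeR adjusted p 0.0319), a call lost in 10 of 19 alternative settings, 6 of which left out a library (edgeR adjusted p 0.0519 to 0.0839).

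Pcna, the ring-shaped clamp that tethers polymerases to DNA, rose in every comparison by a small amount. With estradiol it had 141.7, 145.1 and 155.1 CPM, against 132.3, 136.0 and 133.5 CPM with ethanol (log2 0.14, SE 0.04, edgeR adjusted p 0.0285). That call was lost without the third estradiol, the first ethanol or the third ethanol library (edgeR adjusted p 0.0607 to 0.113) and with the gene-wise factors (0.0575). Torin D6 libraries had 97.3, 102.2 and 94.3 CPM and DMSO D6 libraries 77.5, 72.7 and 77.9 CPM (0.36, SE 0.07, edgeR adjusted p 0.000928). Torin D12 libraries had 93.1, 103.5 and 96.3 CPM and DMSO D12 libraries 76.9, 78.9 and 79.8 CPM (0.31, SE 0.07, edgeR adjusted p 0.00412). The Torin and DMSO libraries did not overlap in either arm.

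The RFC proteins, which open the clamp and load it, did not move as a group. Rfc4 fell with estradiol, at 13.5, 12.7 and 14.9 CPM against 15.7, 16.4 and 17.3 CPM with ethanol (log2 -0.27, SE 0.09, edgeR adjusted p 0.0263), although leaving out any of 4 libraries, the first or second estradiol or the second or the third ethanol library, ended the call (edgeR adjusted p 0.0677 to 0.111). Rfc3 rose by 0.26 with estradiol (edgeR adjusted p 0.0496), but not without the second or the third estradiol or the first ethanol library (edgeR adjusted p 0.12 to 0.193) nor in DESeq2. None of the 4 loader genes passed with Torin in either arm, where their values lay between -0.25 for Rfc4 in D6 and 0.33 for Rfc4 in D12.

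Genes of nucleotide supply split in direction, and the changes of Tyms and Tk1 with Torin were among the largest of the 49. Tyms encodes thymidylate synthase, which makes dTMP from dUMP. It had 27.7, 26.1 and 28.9 CPM in estradiol libraries and 18.6, 20.3 and 20.7 CPM in ethanol libraries (log2 0.47, SE 0.07, edgeR adjusted p 9.96e-05). Torin D6 libraries had 68.0, 81.4 and 65.6 CPM, against 23.0, 23.6 and 23.0 CPM in DMSO D6 libraries, a 3.09-fold rise (1.63, SE 0.10, edgeR adjusted p 2.65e-07). Torin D12 libraries had 47.9, 51.6 and 46.5 CPM, against 21.1, 24.9 and 23.8 CPM in DMSO D12 libraries, a 2.09-fold rise (1.07, SE 0.10, edgeR adjusted p 1.71e-05). The groups were far apart in both arms, and the Torin libraries of D6 all lay above those of D12.

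Dut encodes the dUTPase that keeps uracil out of DNA and supplies dUMP to thymidylate synthase. It had 36.3, 38.1 and 37.2 CPM with estradiol and 27.1, 26.6 and 28.3 CPM with ethanol (log2 0.45, SE 0.06, edgeR adjusted p 2.02e-05). With Torin it was uneven: 18.4, 11.6 and 31.0 CPM in D6, against 9.41, 9.98 and 12.1 CPM with DMSO (0.95, SE 0.30, edgeR adjusted p 0.0237). These groups overlap, and without the third Torin D6 library the change was 0.50 (edgeR adjusted p 0.0894). The call was also lost without the first or the second DMSO D6 library (edgeR adjusted p 0.0815 and 0.0757). In D12 the values were 14.6, 16.9 and 23.4 CPM with Torin and 8.40, 10.1 and 9.64 CPM with DMSO (0.97, SE 0.30, edgeR adjusted p 0.0322). Without the second or the third Torin D12 library, or any of the 3 DMSO D12 libraries, the adjusted p was 0.0609 to 0.112. The D12 test shares its fit with the D6 groups. Without the third Torin D6 library the Dut change in D12 was 0.99 (edgeR adjusted p 0.00189).

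Tk1, thymidine kinase 1, feeds dTMP from salvaged thymidine and moved against Tyms in all 3 comparisons. With estradiol it had 57.2, 52.2 and 57.1 CPM, against 75.3, 68.4 and 67.9 CPM with ethanol (log2 -0.35, SE 0.05, edgeR adjusted p 0.000171). In D6 Torin libraries had 29.2, 25.4 and 30.0 CPM and DMSO libraries 60.2, 69.2 and 55.9 CPM (-1.13, SE 0.11, edgeR adjusted p 1.29e-05). In D12 they had 33.5, 28.1 and 36.5 CPM with Torin and 73.5, 72.3 and 67.7 CPM with DMSO (-1.12, SE 0.11, edgeR adjusted p 3.29e-05). Treated libraries lay below their vehicle libraries throughout, and the Tk1 calls held in every alternative setting.

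Rrm2 and Rrm1 encode the subunits of ribonucleotide reductase, which turns ribonucleotides into deoxyribonucleotides. Rrm2, its S phase subunit, had 39.3, 42.7 and 44.1 CPM in estradiol libraries and 31.6, 32.7 and 35 CPM in ethanol libraries (log2 0.35, SE 0.06, edgeR adjusted p 0.000453). In D6 it had 43.4, 49 and 35.7 CPM with Torin and 52.7, 51.2 and 58.9 CPM with DMSO (-0.35, SE 0.14, edgeR adjusted p 0.0763; 0.0334 without the second Torin library). The D12 values were 42.0, 35.2 and 29.2 CPM with Torin and 49.9, 60.0 and 54.8 CPM with DMSO (-0.63, SE 0.14, edgeR adjusted p 0.00712). Rrm2 thus lay above ethanol with estradiol and below DMSO with Torin, without overlap. Rrm1 had 69.8, 73.5 and 66.4 CPM in Torin D12 libraries and 87.3, 91.0 and 87.3 CPM in DMSO D12 libraries (-0.34, SE 0.07, edgeR adjusted p 0.00392; 0.0545 with the gene-wise factors), and did not pass in D6 (-0.11) or with estradiol (0.12).

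**Figure D2:**
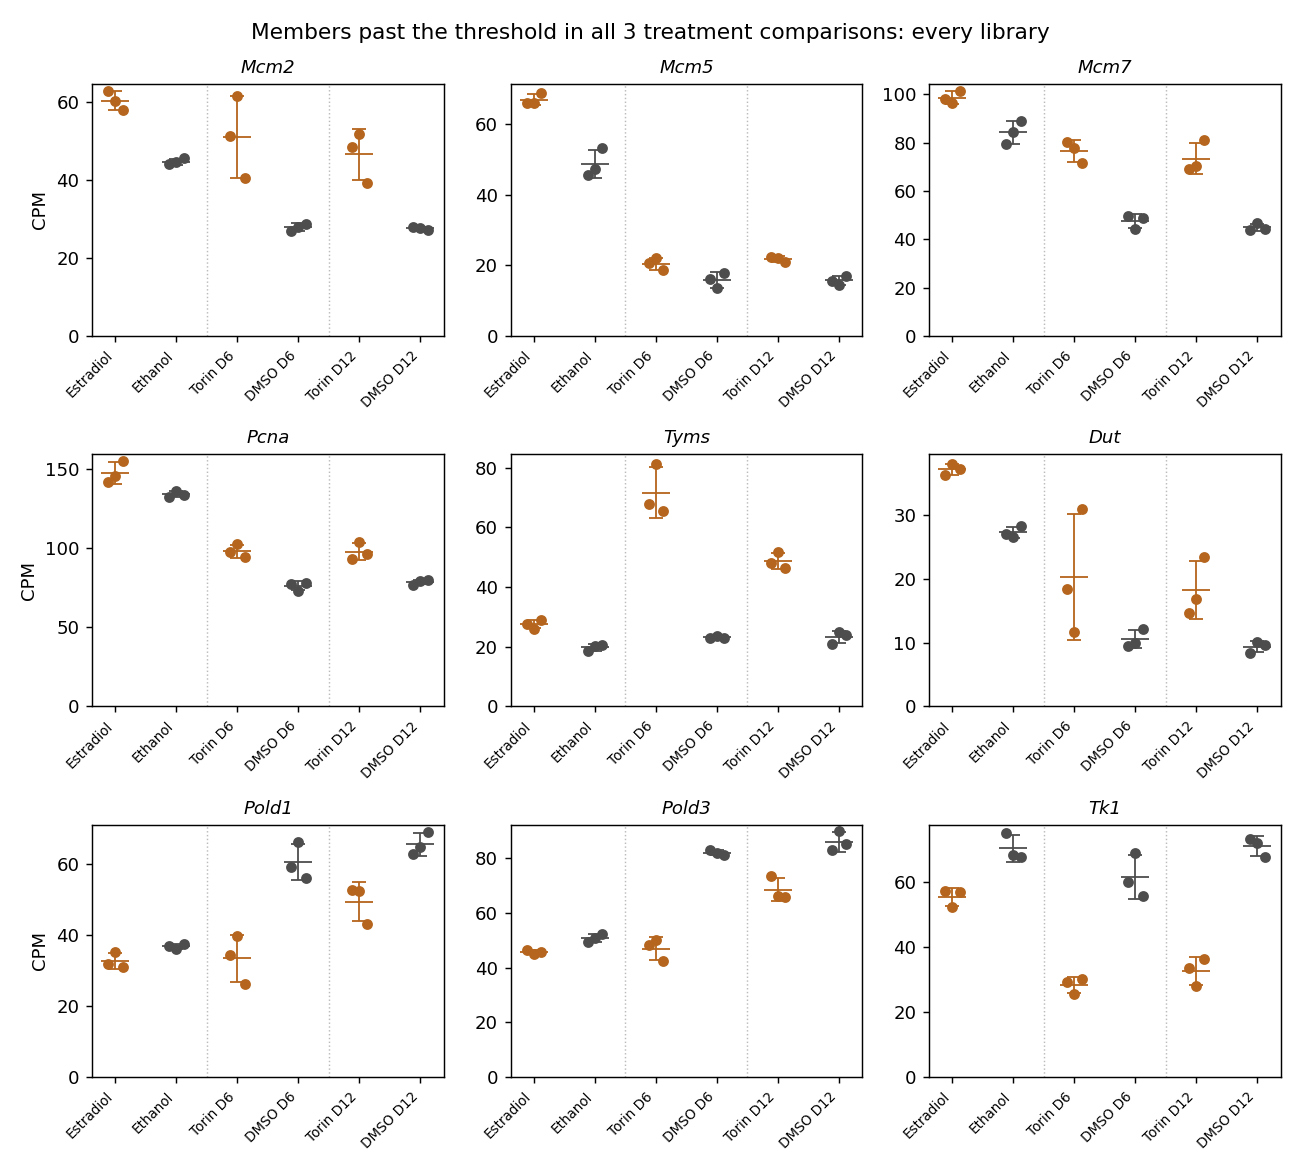
CPM in each library (points, replicates 1 to 3 from left to right) with group mean and SD (bars, n = 3) for the 6 replication genes that rose and the 3 that fell in all 3 treatment comparisons; brown marks treated and grey vehicle libraries. Tyms reached 81.4 CPM with Torin in D6, against at most 23.6 CPM with DMSO, whereas Tk1 with Torin stayed at or below 36.5 CPM in both arms.

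Among the 8 polymerase and primase genes, 3 fell and none rose in each Torin arm, where 19.3% (D6) and 14.6% (D12) of all genes fell. With estradiol 1 rose and 2 fell, with a group median of 0.13, where 17.4% of all genes rose and 16.6% fell. Both estradiol falls, of Pold1 and Pold3, were lost in DESeq2 (DESeq2 adjusted p 0.163 and 0.131) and without a filter (edgeR adjusted p 0.115 and 0.139). Pold1 is the catalytic subunit of polymerase delta, which copies the lagging strand. It had 31.8, 35.3 and 31.1 CPM with estradiol and 37.0, 36.0 and 37.5 CPM with ethanol (log2 -0.17, SE 0.06, edgeR adjusted p 0.0383). This small difference was lost without the first or the third estradiol library or any of the 3 ethanol libraries (edgeR adjusted p 0.0625 to 0.138). In D6 it had 34.3, 39.7 and 26.3 CPM with Torin and 59.3, 66.2 and 56.3 CPM with DMSO (-0.86, SE 0.14, edgeR adjusted p 0.000432). In D12 it fell by 0.41 on the log2 scale (edgeR adjusted p 0.0457), and leaving out any of the 6 D12 libraries ended that call (edgeR adjusted p 0.0729 to 0.138). Without the third Torin D6 library, which enters the same fit, the Pold1 change in D12 was -0.39 (edgeR adjusted p 0.00587).

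Pold3, an accessory subunit of the same polymerase, followed Pold1. It had 46.6, 44.9 and 45.7 CPM with estradiol and 49.5, 50.7 and 52.3 CPM with ethanol (log2 -0.15, SE 0.05, edgeR adjusted p 0.0223), and the call was lost without the second or the third library of either group (edgeR adjusted p 0.0537 to 0.0974). In D6 it had 48.4, 50.1 and 42.3 CPM with Torin and 83.0, 81.9 and 81.2 CPM with DMSO (-0.80, SE 0.08, edgeR adjusted p 9.55e-06). In D12 it had 73.4, 66.4 and 65.8 CPM with Torin and 82.9, 90.0 and 85.3 CPM with DMSO (-0.33, SE 0.08, edgeR adjusted p 0.00859). All Torin libraries lay below all DMSO libraries, with the smaller gap in D12, and the effects of the arms differed by 0.48 (SE 0.11, edgeR adjusted p 0.0174; 0.0504 without the first DMSO D12 library).

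Pole2, the second subunit of the leading strand polymerase epsilon, had 5.90, 5.03 and 6.11 CPM in Torin D6 libraries and 8.87, 10.3 and 8.99 CPM in DMSO D6 libraries (log2 -0.72, SE 0.14, edgeR adjusted p 0.00138). It fell by 0.59 in D12 (edgeR adjusted p 0.00772) and had a value of 0.12 with estradiol, not passed. Pole, the catalytic subunit, rose by 0.25 with estradiol (edgeR adjusted p 0.0318), a call lost when any 1 estradiol library or the third ethanol library was left out (edgeR adjusted p 0.0574 to 0.12), and did not pass with Torin. Pola1, Pola2, Prim1 and Prim2, which make the primers, did not pass in any of the 3 comparisons, with values between -0.24 and 0.24.

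Orc1 and Cdc6 of the origin recognition and licensing genes rose with estradiol, and none passed with Torin. Orc1, the largest ORC subunit, rose by 0.64 with estradiol (SE 0.17, edgeR adjusted p 0.00937), at the lowest counts of the 49 (59 in the lowest library). With the gene-wise factors its change was 0.46 and did not pass (edgeR adjusted p 0.124). Cdc6, an ATPase that helps load the helicase, rose by 0.53 (SE 0.13, edgeR adjusted p 0.00532). Orc6 (0.17) and Cdt1 (0.12) did not pass. In the Torin experiment Orc1 had as few as 9 counts in a library, and its log2 fold changes had standard errors of 0.48 in D6 and 0.47 in D12.

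Of the helicase activators, Cdc45 rose by 0.54 (edgeR adjusted p 0.00256) and Gins1 by 0.46 (edgeR adjusted p 0.0225) with estradiol. The Gins1 call was lost without the third estradiol or the first or the second ethanol library (edgeR adjusted p 0.06 to 0.107). Mcm10, which joins the helicase at firing, and Gins2, Gins3 and Gins4 did not pass there. Gins2 had 19.7, 23.7 and 20.3 CPM in Torin D6 libraries and 26.4, 30.7 and 26.5 CPM in DMSO D6 libraries (log2 -0.39, SE 0.12, edgeR adjusted p 0.0185), a call lost without the first Torin or the second DMSO library (edgeR adjusted p 0.0563 and 0.0788). None of the 6 activators passed in D12, although all 6 values were negative, between -0.26 and -0.12.

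Fen1, the nuclease that trims Okazaki fragment flaps, rose by 0.35 with estradiol (SE 0.07, edgeR adjusted p 0.0014). Lig1, the ligase that seals the fragments, fell by 0.34 in Torin D12 (edgeR adjusted p 0.0499), a call lost when any 1 DMSO D12 library or the second or the third Torin D12 library was left out (edgeR adjusted p 0.0805 to 0.15). The RPA genes Rpa1 and Rpa2 did not pass in any of the 3 comparisons.

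Among genes that carry chromatin through replication, Uhrf1, which brings the maintenance DNA methyltransferase to newly copied CpG sites, changed direction between treatments. It had 57.1, 59.7 and 57.7 CPM with estradiol and 47.0, 46.7 and 48.7 CPM with ethanol (log2 0.29, SE 0.05, edgeR adjusted p 0.000175). In D6 it had 15.8, 16.4 and 15.9 CPM with Torin and 25.5, 22.9 and 26.8 CPM with DMSO (-0.64, SE 0.10, edgeR adjusted p 0.000399). In D12 it had 16.8, 19.6 and 17.5 CPM with Torin and 24.0, 27.9 and 25.9 CPM with DMSO (-0.53, SE 0.10, edgeR adjusted p 0.00251). None of these groups overlap. Hells, a chromatin remodeler of the SNF2 family needed for DNA methylation, rose with estradiol, at 39.1, 35.5 and 43.2 CPM against 29.5, 26.9 and 28.8 CPM with ethanol (0.47, SE 0.07, edgeR adjusted p 0.000134), and had 0.39 and 0.28 in D6 and D12, neither passed.

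The CAF-1 subunits, which deposit histones behind the fork, did not move alike. Chaf1b had 14.2, 14.9 and 13.0 CPM in Torin D6 libraries and 18.1, 18.3 and 18.6 CPM in DMSO D6 libraries (log2 -0.39, SE 0.11, edgeR adjusted p 0.0164), and fell by 0.43 in D12 (edgeR adjusted p 0.0138; 0.0614 without the third DMSO and 0.0582 without the second Torin library). Chaf1a rose by 0.21 with estradiol (edgeR adjusted p 0.0173), but not without the second estradiol or the first ethanol library (edgeR adjusted p 0.0888 and 0.0603) nor with the gene-wise factors (0.449). In Torin D6 it had 7.60, 4.54 and 15.0 CPM, against 4.04, 3.89 and 5.52 CPM with DMSO, and did not pass (1.01, SE 0.38, edgeR adjusted p 0.053; 0.42 without the third Torin library). Slbp, which binds the stem-loop of histone mRNAs, did not pass in any comparison.

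In the fork checkpoint and repair group, Clspn (claspin, 0.27) and the exonuclease gene Exo1 (0.32) rose with estradiol, and Dtl, part of the ligase that degrades CDT1, did not (-0.03). The Clspn call was lost without the second or the third estradiol or the first or the second ethanol library (edgeR adjusted p 0.0821 to 0.17), and that of Exo1 in DESeq2 (0.0728). None of the 3 passed with Torin.

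The 3 E2F genes among the members differed in their calls between the experiments. E2f2, an activator, rose by 0.25 with estradiol (edgeR adjusted p 0.0413; 0.0538 to 0.16 when any 1 library other than the third estradiol library was left out), where E2f1 and the repressor E2f8 did not pass. E2f1 had 28.8, 27.6 and 29.9 CPM with estradiol and 27.4, 27.6 and 27.1 CPM with ethanol (log2 0.07, SE 0.06, edgeR adjusted p 0.385). In Torin D12 all 3 fell. E2f1 had 7.07, 6.60 and 6.09 CPM in Torin D12 libraries and 18.7, 20.5 and 22.0 CPM in DMSO D12 libraries (-1.63, SE 0.28, edgeR adjusted p 0.00123), the largest fall of the 49 there. E2f8 had 2.70, 1.97 and 2.06 CPM with Torin and 5.78, 5.77 and 4.67 CPM with DMSO (-1.27, SE 0.20, edgeR adjusted p 0.000778). E2f2 fell by 0.66 (edgeR adjusted p 0.0256), but did not pass with the gene-wise factors (0.531) or without the second or the third library of either D12 group (0.0592 to 0.107).

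None of the 3 passed in Torin D6, but E2f1 rested there on a single library. Its levels were 7.77, 7.81 and 17.7 CPM with Torin and 14.7, 20.4 and 17.7 CPM with DMSO, so the third Torin library lay within the DMSO range and the other two lay below it. The change was -0.67 (SE 0.27, edgeR adjusted p 0.0704) with all libraries and -1.19 (SE 0.15, edgeR adjusted p 2.78e-05) without the third Torin library, and with all libraries it passed in DESeq2 (DESeq2 adjusted p 0.0464) and without a filter (edgeR adjusted p 0.0403). The difference of the E2f1 effects was -0.96 (edgeR adjusted p 0.151) with it and -0.43 (edgeR adjusted p 0.19) without it, so a difference between the arms was not shown. E2f8 in D6 had 4.21, 4.32 and 5.81 CPM with Torin and 4.36, 4.74 and 5.63 CPM with DMSO, groups that overlap (-0.04). Its effects differed between the arms by -1.23 (SE 0.28, edgeR adjusted p 0.0165), and this call held in all 19 alternative settings that kept the threshold of 0.05.

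Of the 49 differences between the arms, 2 were higher and 2 lower in D12 than in D6 (Mcm6 and Pold3, Tyms and E2f8), where 5.03% and 5.55% of all genes passed in those directions. That share is near the background. The rise of Tyms was smaller in D12 by 0.56 (SE 0.14, edgeR adjusted p 0.0235). Without the first or the third DMSO D6, the second or the third DMSO D12 or the first Torin D12 library, its adjusted p was 0.0565 to 0.0668, and with the gene-wise factors 0.0711.

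The MCM2-7 median was positive in each of the 9 treated libraries, between 0.23 and 0.34 with estradiol, between 0.38 and 0.59 in Torin D6 and between 0.35 and 0.42 in Torin D12. The E2F median lay between -0.19 and 0.01 in Torin D6 and between -1.25 and -0.88 in Torin D12. It is a median of 3 genes, and the lowest of them stood at -1.12, -1.11 and -0.12 in the Torin D6 libraries. Medians of the checkpoint and the single-strand binding groups changed sign between libraries in both Torin arms. Those of the origin recognition, activator, clamp and E2F groups did so in Torin D6, and that of the polymerases with estradiol.

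**Figure D3:**
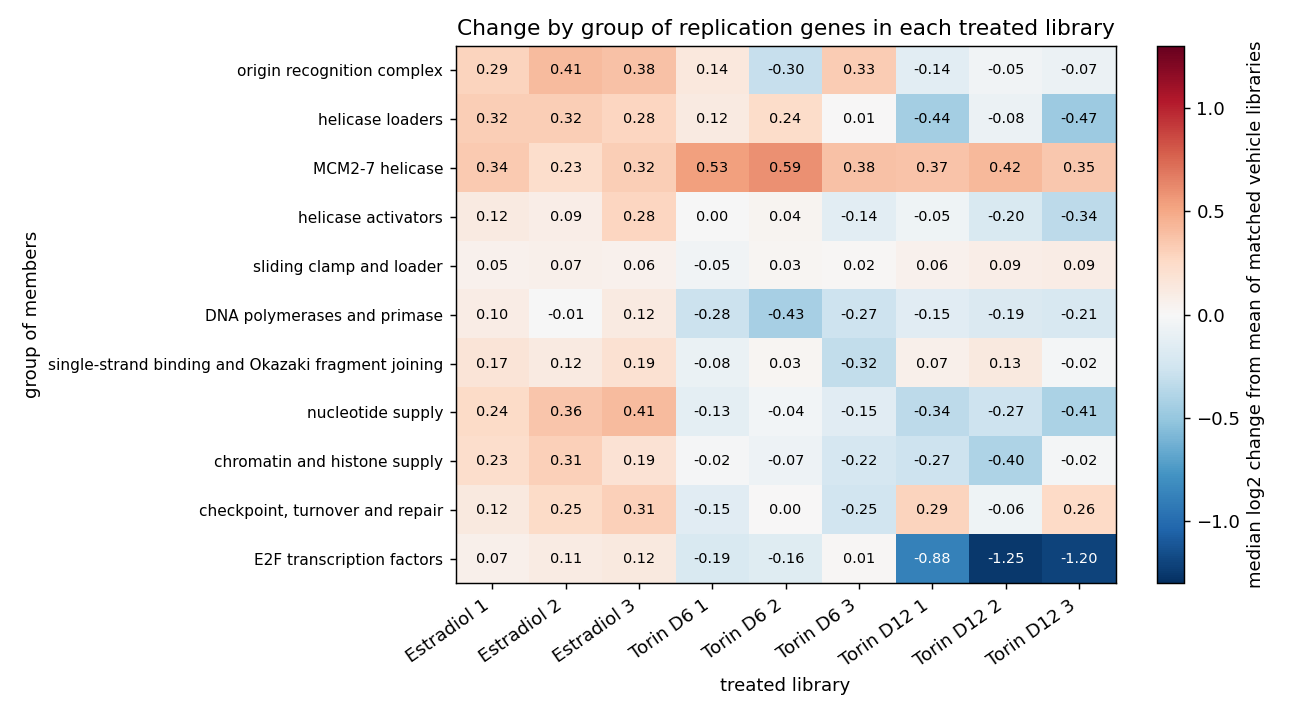
Median log2 change of each group of members (rows) in each of the 9 treated libraries (columns), relative to the mean of the matched vehicle libraries, on log2 of CPM plus 0.5. The MCM2-7 row is positive in all 9 libraries, and the E2F row lies at or below -0.88 in the 3 Torin D12 libraries.

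Genes outside the 49 that share the pathway were counted from named lists. Of 44 other replication fork and origin genes, 12 rose and 2 fell with estradiol, where 17.4% of all genes rose and 16.6% fell. Topbp1 (log2 0.29), a checkpoint and initiation factor, and Orc2 (0.39) rose, while Pold4 (-0.47), the small subunit of polymerase delta, and the dNTP hydrolase gene Samhd1 (-0.14) fell. In D6 9 rose and 8 fell, near the background of 19.8% and 19.3%, and without the third Torin D6 library 4 rose and 7 fell. In D12 4 rose and 6 fell, near the background of 10.8% and 14.6%. The dNTP hydrolase gene Samhd1 (-1.44 and -0.93), the salvage kinase gene Dck (-1.13 and -1.04) and Gmnn (-0.99 and -1.09), whose product geminin blocks CDT1, fell in both arms, each with an edgeR adjusted p of at most 0.000136. None of these 44 passed for the difference between the arms in edgeR.

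Of the regulators of G1 and the E2F pathway, 10 of 29 tested rose and 5 fell with estradiol, where 17.4% of all genes rose and 16.6% fell, so the falls were near the background. Ccnd2, a D-type cyclin, averaged 173.9 ± 19.9 CPM in estradiol and 75.8 ± 5.3 CPM in ethanol libraries (SD, n = 3 each; log2 1.2, edgeR adjusted p 1.56e-08). Ccnd1 rose by 0.28, and Cdkn1b, which encodes the inhibitor p27, fell by 0.53. In Torin D6 12 of 30 rose and 6 fell, against 19.8% and 19.3% of all genes. Without the third Torin D6 library 8 rose and 9 fell, the calls of E2f4 and E2f6 were lost (edgeR adjusted p 0.0675 and 0.0533), and the change of Tfdp1 was 0.50, against 1.11 with it. With all libraries Ccnd2 rose by 2.11 and Myc by 1.36, and the inhibitor gene Cdkn2d fell (-2.0). In Torin D12 3 rose (Myc 0.52, Cdk4 0.32, Tfdp2 0.59) and 6 fell, against 10.8% and 14.6% of all genes, among them Cdkn2d (-1.57), Cdkn1a (-1.15) and Ccnd3 (-0.39).

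Mitosis genes, whose products act after S phase, stood apart from the replication genes with Torin. All 25 on the list fell in both arms, with medians of -1.05 in D6 and -1.22 in D12, where 19.3% and 14.6% of all genes fell; without the third Torin D6 library 24 fell in D6. Ccnb2 (cyclin B2) changed by -1.62 and -1.69, Cenpa and Prc1 by -1.57 and -1.19 in D6, and Tpx2 and Aurka by -1.27 and -1.80 in D12. With estradiol 1 rose (Plk1, 0.26), 1 fell (Cenpf, -0.23) and 23 did not pass. The summed level of mitosis genes was 307 to 326 CPM in Torin D6 and 658 to 698 CPM in DMSO D6 libraries, and 286 to 333 CPM in Torin D12 and 668 to 782 CPM in DMSO D12 libraries. The summed level of the 49 replication genes was 1327 to 1456 CPM in Torin D6 and 1389 to 1422 CPM in DMSO D6 libraries, and 1382 to 1417 CPM in Torin D12 and 1386 to 1479 CPM in DMSO D12 libraries. The replication sum joins members that rose and members that fell (8 and 7 in D6, 7 and 12 in D12) and weighs abundant genes most. The replication sums overlapped in both arms while the mitosis sums did not. With estradiol the order was the other way: replication sums were 1730 to 1791 CPM with estradiol and 1551 to 1614 CPM with ethanol, without overlap, and mitosis sums of 1214 to 1277 CPM with estradiol and 1173 to 1274 CPM with ethanol overlapped.

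**Figure D4:**
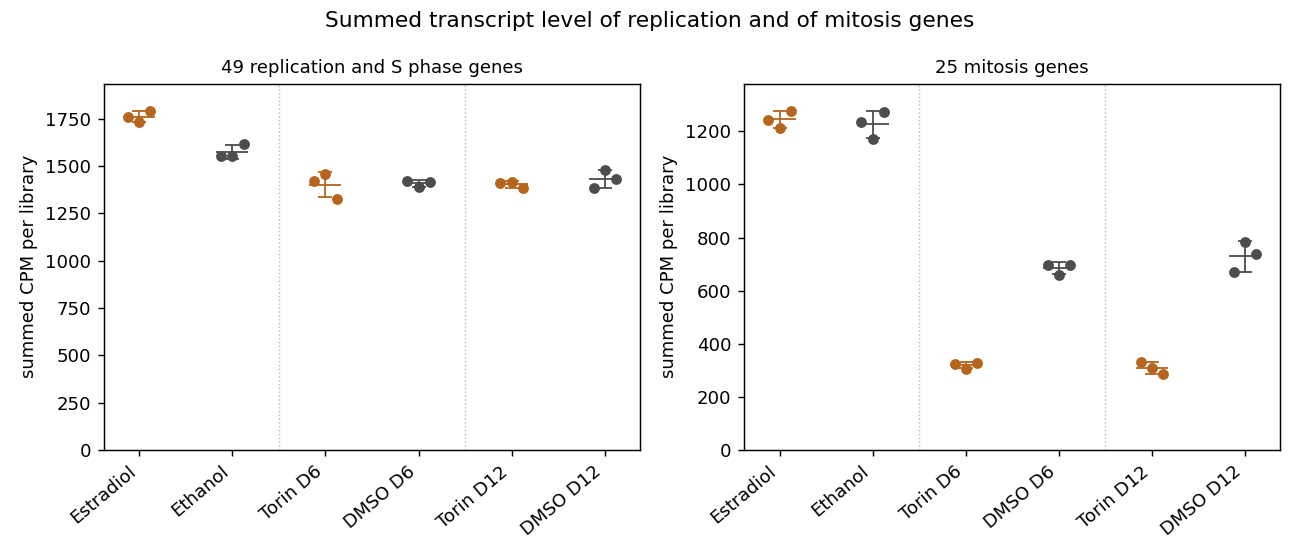
Summed CPM per library (points, with group mean and SD as bars, n = 3) of the 49 replication and S phase genes and of 25 mitosis genes; brown marks treated and grey vehicle libraries. With Torin the mitosis sum lay at or below 333 CPM, against at least 658 CPM with DMSO, while the replication sums of Torin and DMSO libraries overlapped. The replication sum joins members that rose and members that fell.

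Promoters of 41 of the 49 genes were in the RefSeq table. Where several were listed for a gene, as for Mcm7, Fen1, Lig1, Uhrf1 and E2f2, only the first was searched. An E2F form was found in 17 of the 41 (41.5%), against 626 of 27025 promoters of the same length in the whole table (2.32%) and 467 of 11988 promoters of genes tested in the Torin experiment (3.9%). The CCAAT box (CCAAT on either strand) was in 25 of 41 (61%), against 37.9% of all promoters. The CHR element (TTTGAA or TTCGAA on either strand), found in promoters of many mitosis genes, was in 7 of 41 (17.1%), against 19.4% of all. Overlapping matches were counted separately. Promoters with an E2F form belonged to 10 of the 19 matched members that rose with estradiol and to 5 of the 18 without a call there. With Torin they belonged to 4 of 8 that rose in at least 1 arm, 4 of 12 that fell in at least 1, and 9 of 21 without a call in either. A match describes the letters in this window and shows no binding.

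**Figure D5:**
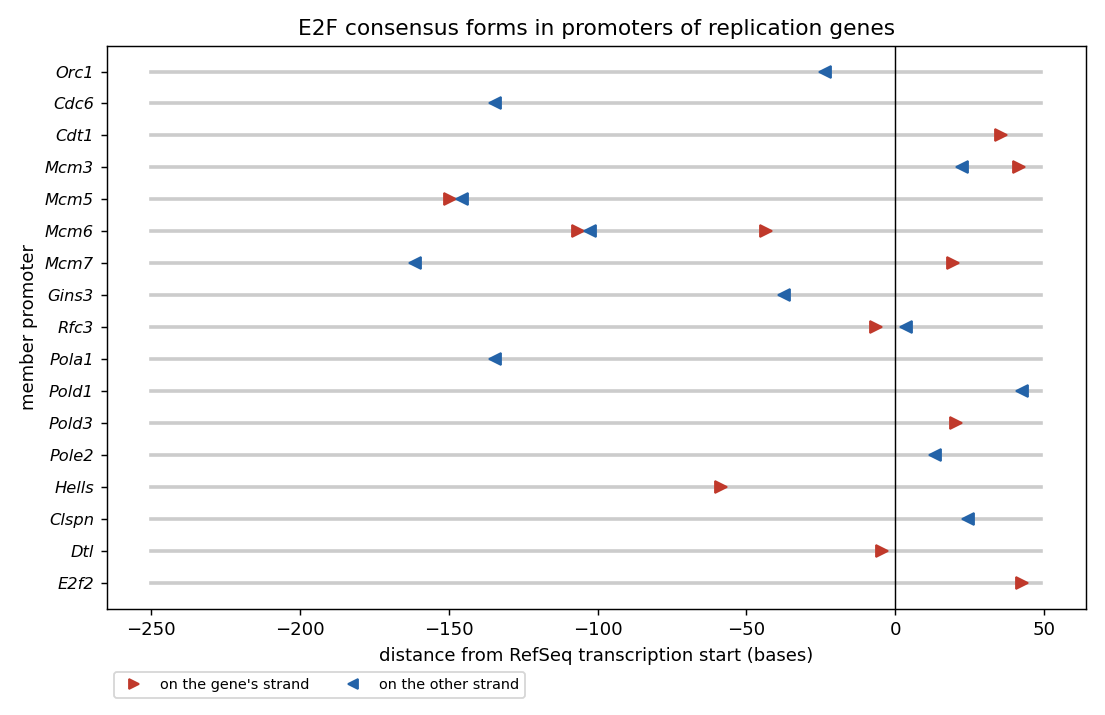
Positions of E2F consensus forms in the 17 member promoters that hold one, as distance in bases from the RefSeq transcription start, with arrowheads for the strand. Grey lines span the window searched; forms lie between 165 bases before the start (Mcm7) and 39 bases after it (Pold1 and E2f2), and Mcm6 holds 3.

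Some of these genes share exon sequence with a neighbour. In GENCODE M21, exons of 15 of the 49 overlap exons of a gene on the opposite strand, among them Tk1 (with Afmid), Mcm7 (with Ap4m1 and Cops6), Rfc4 (with Eif4a2), Fen1, Gins2, Lig1 and Chaf1a. The kit marked strand, but whether counting used it is not given in the sources used here, so reads of such pairs may not be fully separated. Exons of 3 members overlap a gene on the same strand, where strand cannot separate reads. These are Pole2 (177 bases, with the protein-coding Gm49384), and Mcm7 and Rpa1 with microRNA genes. The processed pseudogenes Pcna-ps1, Pcna-ps2 and Tyms-ps held at most 2 counts in any Torin experiment library.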

How the data were processed

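The 18 libraries, sequenced from polyadenylated RNA with a stranded kit, fall into 6 groups of 3 by their labels. More Torin samples are mentioned in the design text than the 12 used; others were not analysed here. Per the submitters' processing notes, reads passed through Trim Galore, cutadapt, FastQC, MultiQC, kallisto and DESeq2 with GRCm39, no version being stated. Per gene, the authors deposited estimated counts for the estradiol experiment, of which 32.2% were not whole, and counts in whole numbers for the Torin experiment. The deposited normalized signal equals those counts over gene-wise factors and served only in alternatives.

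Estimated counts were rounded. Separate fits for the experiments used R 4.3.3 and edgeR 4.0.16: filterByExpr, TMM scaling, the quasi-likelihood test and Benjamini-Hochberg adjustment over all genes tested, with an adjusted p under 0.05 called rose, fell or passed. Standard errors come from the fit, and CPM uses the TMM-scaled library. The common biological coefficient of variation was 5.27% (estradiol) and 20.2% (Torin), so smaller changes could pass with estradiol. The code was tested on simulated data. Alternatives were DESeq2 1.42.0, limma 3.58.1 on the signal, RLE factors, other filters, an adjusted p under 0.01, only the groups compared, the gene-wise factors, a replicate block, and each library left out. Counts of settings in which a call held or was lost leave out the stricter adjusted p. For each comparison only libraries of its own groups were left out in turn, although the Torin groups share 1 fit.

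Members, lists and alternatives were chosen with earlier results of these data known, so no list was tested. Library values are given for the 8 members of lowest p in each treatment comparison, members called against the direction of most, and Mcm2, Mcm5, Pcna, E2f1, Rrm2 and Tk1. Those of Chaf1a and other members, and the counts of other lists without the third Torin D6 library, were added after their values were seen. Outside the members only some genes are named, mainly from the 3 of lowest p in a list. Not every gene called against most of its list is named.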

Additional observations from a re-analysis of the deposited data

Results flagged for a closer look

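The effect of Torin differed between the arms by edgeR's test of the difference (D12 minus D6, log2, Benjamini-Hochberg adjusted p under 0.05) for 4 of the 49 replication genes, where 10.6% of all genes passed. The differences were 0.41 for Mcm6 (adjusted p 0.0319), 0.48 for Pold3 (adjusted p 0.0174), -0.56 for Tyms (adjusted p 0.0235) and -1.23 for E2f8 (adjusted p 0.0165). The call of Mcm6 was lost in 10 and that of Tyms in 8 of 19 alternative settings. All 3 Torin D12 libraries lay below all DMSO D12 libraries for E2f8, whereas its D6 groups overlapped.

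Among regulators of G1, 6 genes differed between the arms, all with the lower value in D12. Ccnd2 differed by -2.14 (adjusted p 2.68e-05), with an effect of -0.03 in D12 and 2.11 in D6. Ccnd1 differed by -0.82 (adjusted p 0.0015), with 0.04 in D12 and 0.86 in D6. Cdkn1a, the gene of the inhibitor p21, differed by -1.43 (adjusted p 8.92e-05), with -1.15 in D12 and 0.29 in D6. Cdkn2a and Cdkn2b, genes of INK4 inhibitors, differed by -1.25 (adjusted p 0.0123) and -0.67 (adjusted p 0.0244). Myc differed by -0.85 (adjusted p 0.00108) and rose in both arms. Of the mitosis genes Aurka differed by -0.75 (adjusted p 0.0322) and fell in both.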

How the results depend on the processing

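No called change of a member changed direction under any alternative run. Of the genes not called, Gins2 and Pola2 had -0.18 and -0.07 with estradiol, and 0.24 and 0.08 with the gene-wise factors. With an adjusted p under 0.01, 14 members rose and 1 fell with estradiol, 5 rose in Torin D6, 4 rose in Torin D12, and 0 rose and 0 fell for the difference between arms. Falls also passed that level with Torin. In D6 these were Tk1, Pold1, Pold3, Pole2 and Uhrf1, and in D12 E2f1, E2f8, Tk1, Uhrf1, Rrm1, Rrm2, Pole2 and Pold3. No count over all genes was taken at that level, so these numbers stand without a background. With the gene-wise factors of the deposited tables, or with limma on the deposited signal, 13 rose with estradiol, among them 4 of 6 MCM2-7 genes (Mcm2, Mcm3, Mcm4 and Mcm5) under the factors. Over all genes 1913 and 1898 rose with estradiol in these settings, against 2668 in the main fit. The estradiol falls numbered 1 without a filter and 1 with DESeq2 (Tk1 was the call that held). Over all genes 2334 and 1841 fell in these settings, against 2552 in the main fit. A fit of the compared groups alone gave 5 rises in Torin D6, where 2617 of all genes rose, against 3585 in the main fit. The difference between arms had 1 rise and 1 fall without a filter, with the factors and with limma. Over all genes 753 to 863 rose and 769 to 827 fell there, against 911 and 1006 in the main fit. Leaving out each library in turn gave, with estradiol, 18 to 21 rises and 1 to 3 falls, in Torin D6 5 to 8 and 6 to 8, in Torin D12 5 to 7 and 8 to 11, for the difference 0 to 3 and 1 to 2, and for DMSO 0 and 0. Over all genes these fits gave 2119 to 2511 rises and 2051 to 2317 falls with estradiol, against 2668 and 2552 in the main fit. In D6 they gave 2658 to 3733 and 2903 to 3661, against 3585 and 3503. In D12 they gave 1325 to 1986 and 1936 to 2648, against 1955 and 2637. At an adjusted p under 0.05, 13 of 27 calls held in all other alternatives with estradiol, 11 of 15 in D6 and 11 of 19 in D12. For the difference 1 of 4 did (E2f8), and this call did not pass at 0.01. The cause of the losses was not tested. Replicate numbers did not pair the libraries: same-number correlations of deviations lay between -0.09 and 0.09. With a replicate block, 20 rose and 3 fell with estradiol, 8 and 7 in D6, 7 and 11 in D12, 2 and 2 for the difference and 0 and 0 for DMSO. Depth limits Orc1 in the Torin experiment, with 9 counts in the lowest library.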
